A study of Homo sapiens with 13 samples.

Results

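Antigen receptors carry almost no enzyme activity of their own and signal through kinases and adaptor proteins at the membrane. In B cells LYN, a Src-family kinase, phosphorylates the receptor tails, SYK docks there, and the adaptor BLNK brings BTK and PLCG2 together so that calcium is released. In T cells ZAP70 takes the place of SYK, and the adaptors LAT and LCP2 (SLP-76) that of BLNK, while SIT1 is a membrane adaptor that dampens T cell receptor signalling and HSH2D is an SH2-domain adaptor of blood cells. Plasma cells, the normal counterpart of myeloma, have left much of the B cell receptor programme behind, and IRF4 is a transcription factor that they depend on.

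The 10 genes described here, ZAP70, LAT, LCP2, SIT1, HSH2D, PLCG2, SYK, BTK, BLNK and LYN, were taken by gene symbol, and several of them had been picked because induced arrays lay apart from uninduced ones. Their values in that contrast are therefore given as a description, with no test. The array annotation gave them 45 features (spotted cDNA clones) of 15246 in the table. Of these, 44 carried a value on at least 1 array and 20 were measured often enough to be tested, among 6879 features tested in all.

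The study hybridised 13 two-colour Lymphochip cDNA arrays from human myeloma cell lines, each setting cells with a doxycycline-inducible short hairpin RNA against IRF4 (Cy5) beside cells of the same line with a hairpin against luciferase, shluc (Cy3). Every value is thus a log2 ratio of IRF4 hairpin over luciferase control. KMS12 cells were induced with 20 ng/ml doxycycline for 2 or 3 days (3 arrays), 4 or 5 days (3 arrays) or 7 days (1 array), and H929 cells (2 arrays) and SKMM1 cells (1 array) for 4 days; 3 KMS12 arrays came from uninduced cells that carried the same hairpins without doxycycline. KMS12 arrays form the series 1332, 1332b and 2046, whose IRF4 hairpins are labelled shi_1332, shi_1332b and shi_2046; the labels do not say how shi_1332b relates to shi_1332. H929 and SKMM1 carried shi_2046. Nothing in the labels says that the arrays of a group came from separate cultures, so p-values reflect only how far these arrays scatter, and that scatter can be technical. Since no array had the dyes swapped, a dye effect of a feature stays in its ratio and drops out only where arrays are subtracted from each other. In bulk RNA, fewer cells of a type and less RNA per cell cannot be told apart.

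Between 7140 and 14228 features were measured per array, and array number limits the precision. The targeted gene followed the labels: the mean of the 2 tested IRF4 features stood at 29.1 to 48.8% of control at days 2-3, 59.5 to 66.5% at days 4-5, 59.0% at day 7, 25.7 to 28.9% in H929 and 24.6% in SKMM1, against 109 to 118% on the uninduced arrays. At days 2-3 these features differed from uninduced by -1.47 and -1.52 on the log2 scale (limma adjusted p = 0.0668 for each), and at days 4-5 by -0.80 and -0.87 (limma adjusted p = 0.785 and 0.761), so neither window passed the threshold of 0.05. Without the days 2-3 series 2046 array 932 features passed at days 2-3 against uninduced, beside 0 with it. All 10 listed plasma cell marker genes had tested features, although a ratio gives no level within a line. Over the tested features before centring, the uninduced series 2046 array had a median of 0.28, against -0.158 to 0.025 on the other arrays. Over all features an array carried, the deposited medians ran only from -0.076 to 0.012. The uninduced series 2046 array bears on group differences from uninduced for features measured on it, and on the within-series differences of series 2046.

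The promoter windows of SIT1 and ZAP70 are shown because most of the features that separate induced from uninduced arrays belong to these genes, and that of LCP2 because it holds a motif match. ZAP70 had 3 windows, of which the first along the chromosome is printed. They come from RefSeq (GRCh38.p14), 250 bases before to 50 after the annotated start, and capitals mark a match to AGGAAGT, an ETS-family core, on either strand.
SIT1, chr9:35650882-35651181, minus strand: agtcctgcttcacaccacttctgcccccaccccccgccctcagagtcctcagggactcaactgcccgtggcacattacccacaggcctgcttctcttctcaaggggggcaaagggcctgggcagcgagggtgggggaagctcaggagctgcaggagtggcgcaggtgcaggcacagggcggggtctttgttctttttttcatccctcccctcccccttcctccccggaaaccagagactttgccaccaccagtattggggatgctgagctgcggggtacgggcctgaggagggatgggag
ZAP70, chr2:97713326-97713625, plus strand: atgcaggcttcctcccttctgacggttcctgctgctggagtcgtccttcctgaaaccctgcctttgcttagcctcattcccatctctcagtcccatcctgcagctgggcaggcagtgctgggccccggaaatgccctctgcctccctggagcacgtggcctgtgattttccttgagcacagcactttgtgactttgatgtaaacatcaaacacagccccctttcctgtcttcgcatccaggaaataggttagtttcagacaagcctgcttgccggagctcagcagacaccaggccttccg
LCP2, chr5:170297728-170298027, minus strand: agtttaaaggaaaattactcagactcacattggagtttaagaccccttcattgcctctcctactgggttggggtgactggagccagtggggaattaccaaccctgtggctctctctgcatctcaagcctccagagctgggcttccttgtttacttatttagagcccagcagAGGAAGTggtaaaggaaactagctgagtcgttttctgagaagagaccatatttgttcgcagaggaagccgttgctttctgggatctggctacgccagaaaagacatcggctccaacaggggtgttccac
RefSeq windows were found for 8 of the member genes, 14 windows in all; HSH2D had no entry, and LYN was not used here. None of the 14 held the ETS-IRF composite element that IRF4 binds with an ETS partner (GGAA, any 2 bases, GAAA), and none held an interferon-type element (GAAA, any 2 bases, GAAA). These occur in 2.82% and 3.57% of 35116 promoter windows of the same length, read on both strands. AGGAAGT, whose letters overlap the first element, was present in 4 of the 14 windows (BLNK, BTK, LCP2 and SYK), against 8.24% of all windows. A missing match says only that these letters are not in these windows.

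Coverage decided which genes could be compared. ZAP70 had all 4 of its features tested, SIT1, HSH2D, LAT and LCP2 had both of theirs, and LYN and PLCG2 had 3 of 6 each. BTK had 1 of 7 tested, BLNK 1 of 5 and SYK 0 of 9. The member features carried a value on a median of 9 arrays, as did all features, and 44.4% of them were tested against 45.1% of all features.

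**Figure D1:**
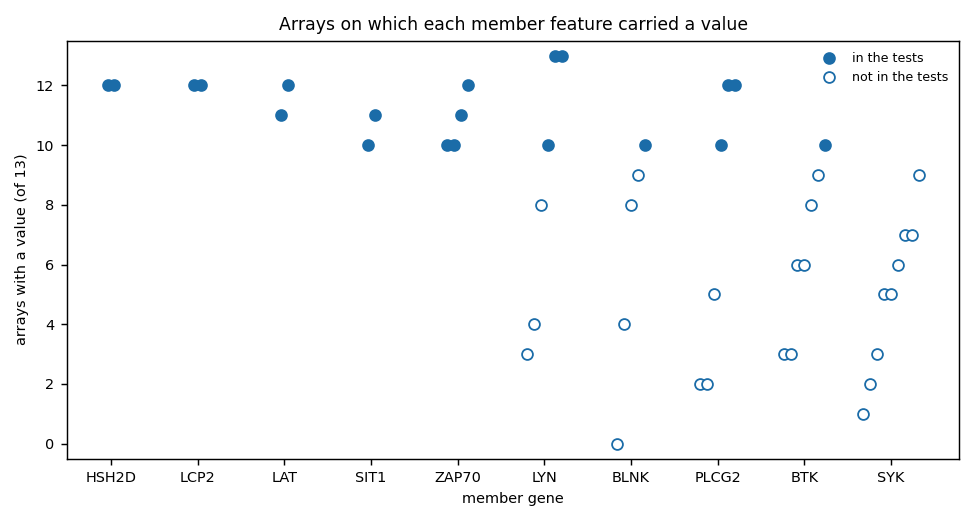
Each point is a member feature, placed by gene and by the number of arrays, of 13, on which it carried a value; filled points entered the tests and open points did not. SYK, with 9 features on 1 to 9 arrays, has no filled point, whereas all 4 ZAP70 features are filled.

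Of the 20 tested member features, 6 were higher on every induced array that carried a value than on every uninduced array that did. In the same way 0 were lower, and over all tested features 1.6% were higher and 1.85% lower. The 6 were both SIT1 features, 3 of the 4 ZAP70 features and 1 HSH2D feature. Each had values on 8 or 9 of the 10 induced arrays and on 2 or 3 uninduced arrays. ZAP70 34044_1 had no H929 value. The same 6 were higher on every induced KMS12 array that carried a value, beside 2.44% of all features higher and 2.22% lower. The count depended on the scaling: with the values as deposited, not centred, 2 features separated (SIT1 30347_1 and ZAP70 30485_1, beside 0.683% of all features), and with arrays scaled to equal spread 8 did, beside 2.27% of all features. Those 8 left out HSH2D 30381_1 and took in LAT 17848_1 and PLCG2 27740_1 and 34538_1. Without the uninduced series 2046 array the same 6 separated, beside 2.3% of all features. Members were chosen on this contrast, so nothing is read from the count.

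SIT1 held the highest difference of a single member feature in both windows. Feature 24529_1 read 1.06 and 1.57 at days 2-3, 0.30 and 1.39 at days 4-5, 1.77 at day 7, 0.77 and 0.83 in H929 and 1.02 in SKMM1, against -0.68, -0.27 and 0.04 on the uninduced arrays. All 8 induced values lay above the highest uninduced one, and the day 7 array was highest. Feature 30347_1 read 0.78 and 0.56 at days 2-3, 0.98, 0.18 and 0.49 at days 4-5, 0.72 and 1.00 in H929 and 0.42 in SKMM1, against -0.01 and -0.51 on 2 uninduced arrays. It too did not overlap, with a smaller gap. The differences from uninduced were 1.62 and 0.93 at days 2-3 and 1.14 and 0.81 at days 4-5 for the 2 features.

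ZAP70, the T cell counterpart of SYK, showed smaller differences over more features. Feature 30485_1 ran from 0.18 to 0.46 at days 2-3 and from 0.10 to 0.52 at days 4-5, and read 0.61 in H929 and 0.70 in SKMM1, against -0.18 and -0.43 on 2 uninduced arrays. Feature 34044_1 ran from 0.10 to 0.47 at days 2-3 and from 0.25 to 0.59 at days 4-5, with 0.33 at day 7 and 0.64 in SKMM1, against -0.23 and -0.18 on 2 uninduced arrays. Both stayed above every uninduced value wherever they were measured. Feature 32671_1 barely separated, since its lowest induced value was -0.177 (days 2-3, series 2046) and its highest uninduced value -0.180. Feature 35058_1 overlapped, with induced values from -0.23 to 0.84 against -0.25 to -0.03 uninduced. The 4 features differed from uninduced by 0.34 to 0.62 at days 2-3 and by 0.28 to 0.61 at days 4-5. Over the arrays that carried both, the mean absolute difference between 2 ZAP70 features was 0.15 to 0.38, and that between the SIT1 features was 0.44.

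HSH2D separated on 1 of its 2 features, and there mainly through low uninduced values. Feature 30381_1 read 0.69, 0.54 and 0.02 at days 2-3, 0.17, -0.24 and -0.42 at days 4-5, 0.47 at day 7, 0.66 on 1 H929 array and -0.13 in SKMM1, against -0.83, -0.82 and -0.45 on the uninduced arrays. Thus 3 of the 9 induced values were below 0. Feature 24536_1 read 0.68, 0.88 and -0.002 at days 2-3 and 0.11, 0.28 and 0.28 at days 4-5, against -0.15, 0.03 and -0.37 on the uninduced arrays, and overlapped these at days 2-3 but not at days 4-5.

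The adaptors LAT and LCP2 gave features whose ratios disagreed array by array. LAT 17848_1 read -0.14, 0.17 and 0.43 at days 2-3, against -0.80 and -0.19 on the uninduced arrays, and its induced arrays overlapped these at days 4-5. LAT 27316_1 held a single low value, -1.95 on the days 2-3 series 2046 array, beside 0.27 on the other array of that window. The 2 LAT features shared a sign on 5 of the 10 arrays that carried both, with a mean absolute difference of 0.58. LCP2 17543_1 read 0.51, 0.15 and -0.01 at days 2-3, against -0.51, -0.29 and -0.07 on the uninduced arrays. LCP2 28076_1 read -0.49, -0.24 and 1.14 in the same window, and the 2 features shared a sign on 3 of 11 arrays. The LCP2 features differed from uninduced by 0.50 and 0.37 at days 2-3 and by 0.29 and 0.18 at days 4-5, and without the days 2-3 series 2046 array the difference of 28076_1 at days 2-3 was -0.13. The LAT features differed from uninduced by 0.65 and -0.50 at days 2-3 and by 0.46 and 0.35 at days 4-5. The difference of -0.50 belonged to 27316_1 and was 0.61 without the days 2-3 series 2046 array.

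PLCG2, the phospholipase that makes the calcium signal, was split in the same way. Features 27740_1 and 34538_1 differed from uninduced by 1.32 and 0.90 at days 2-3 and by 0.81 and 1.09 at days 4-5, with uninduced values from -1.09 to -0.38. Feature 17250_1 differed by 0.19 and -0.06. On the day 7 array all 3 were below 0, at -0.82, -0.60 and -0.45.

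LYN was the 1 member gene with a tested feature wholly below the uninduced arrays in a window. Feature 33973_1 read -0.68, -1.09 and -0.32 at days 2-3 and -0.16, 0.08 and 0.20 at days 4-5, against -0.23, -0.07 and 0.25 on the uninduced arrays. All 3 days 2-3 values lay below all 3 uninduced values, and at days 4-5 the groups overlapped. Feature 16173_1 did not overlap at days 4-5, where it read 0.04, -0.30 and -0.10 against 0.07 and 0.13 on 2 uninduced arrays, and feature 17934_1 overlapped in both windows.

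BTK and BLNK rest on 1 tested feature each. BTK 32628_1 read 0.26 and 0.58 at days 2-3, and 0.24, -0.09 and -3.70 at days 4-5, against -0.39 and -1.22 on 2 uninduced arrays. The value of -3.70, on the series 2046 array, decided its mean at days 4-5. BLNK 24373_1 read -0.27, -0.38 and -1.60 at days 2-3 and -0.26, -0.03 and -0.41 at days 4-5, against -0.48, -0.31 and -0.17 on the uninduced arrays, and overlapped throughout.

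**Figure D2:**
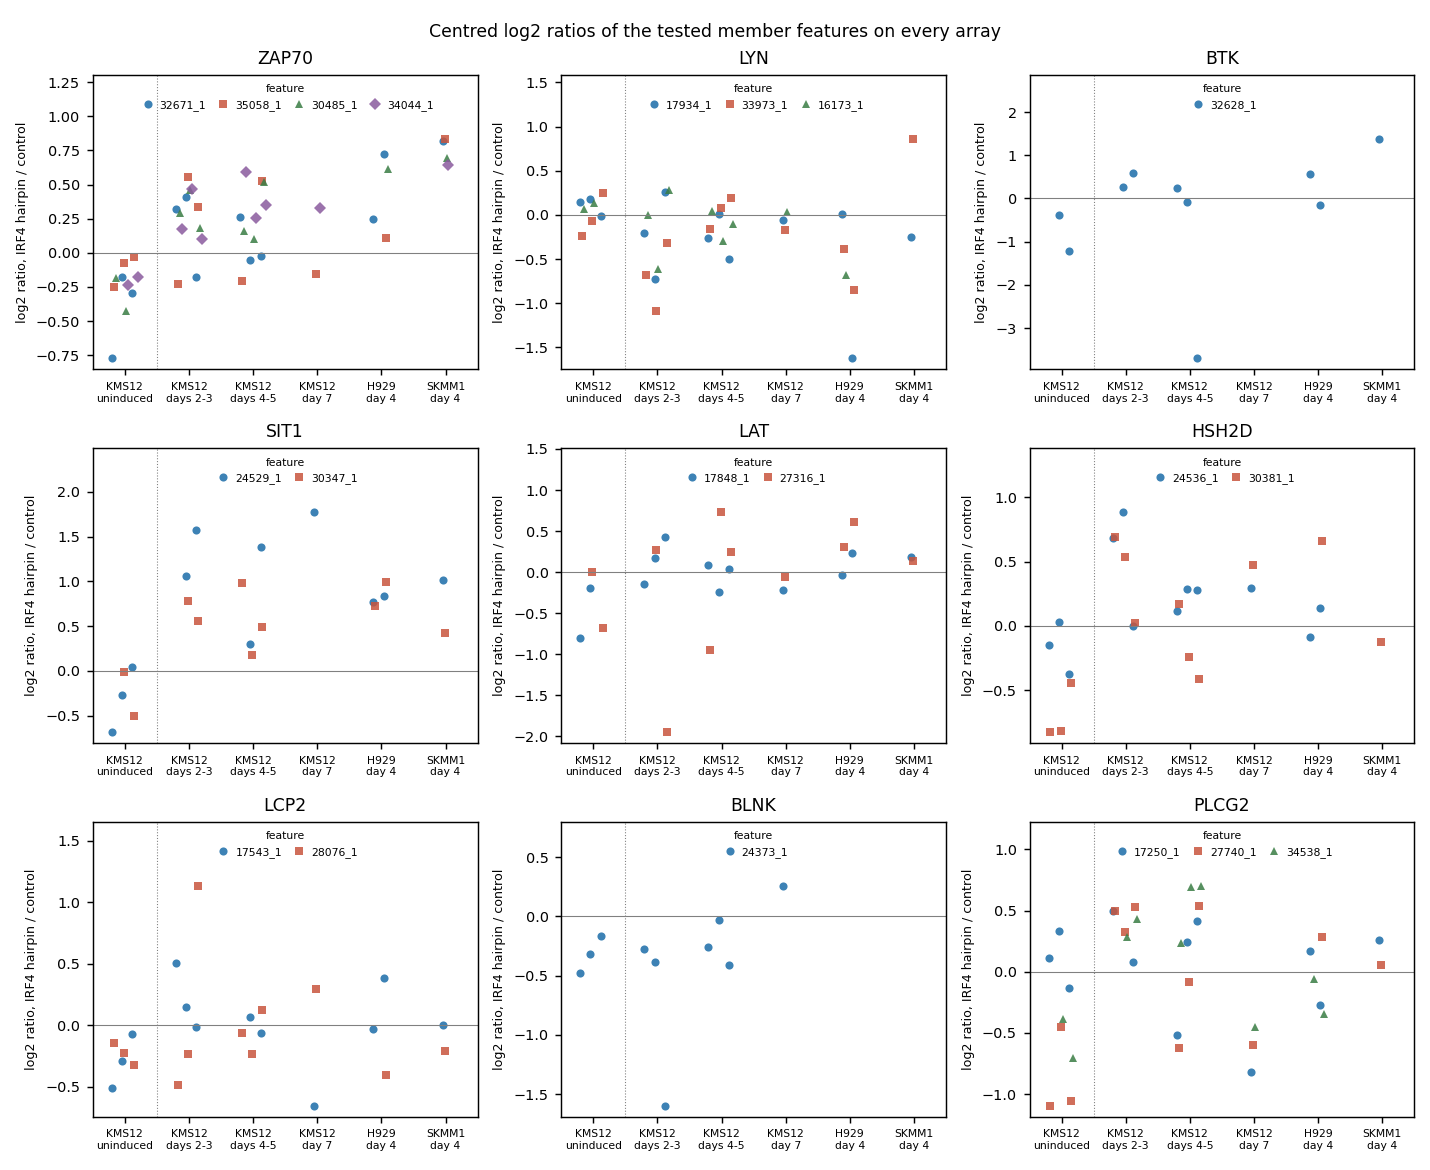
Centred log2 ratios (IRF4 hairpin over luciferase control) of the 20 tested member features, 1 panel per gene, by array group, with 1 marker shape per feature and 1 point per array; the vertical axis differs between panels. SIT1 points of induced arrays sit above those of the uninduced arrays, whereas LCP2 and BLNK points overlap.

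Among the 25 member features outside the tests, SYK was the fullest, with 32 induced values of which 23 lay above 0 and 9 below. SYK 33976_1 read 2.56 on the days 2-3 series 2046 array and 0.13 and 0.05 at days 4-5, against -3.75 and -0.44 on 2 uninduced arrays, so single arrays set its range. Induced values of the other untested features lay on both sides of 0, with 13 above and 12 below for BTK, 7 and 6 for BLNK, 5 and 5 for LYN, and 4 and 3 for PLCG2. Against the uninduced values, 3 of 6 BTK features and 2 of 7 SYK features lay wholly above and 0 below. For BLNK it was 1 above of 3, for PLCG2 1 above of 2, and for LYN 1 above and 1 below of 3. These features rest on few arrays, and no share over all features stands beside the counts, so nothing is read from them.

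In the days 2-3 window 11 of the 20 features lay wholly above the uninduced arrays and 1 (LYN 33973_1) wholly below, against 15.2% and 18.1% of all tested features. In the days 4-5 window 9 lay above and 1 (LYN 16173_1) below, against 7.92% and 6.82%. Both windows count only the arrays that carried a value. The median member difference from uninduced was 0.55 at days 2-3 (15 above 0, 5 below) and 0.37 at days 4-5 (16 above, 4 below). Over all features the medians were 0.04 and 0.00, with 52.4% above and 47.6% below 0 at days 2-3 and 50.5% above and 49.5% below at days 4-5. Not centred, the member medians were 0.35 and 0.19 and those of all features -0.17 and -0.15. The rule used this contrast, so these counts describe the members and support nothing.

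Set against the uninduced array of the same series, 69.2 to 82.4% of the member features lay above 0 in the 7 comparisons, beside 45.1 to 51.4% of all features. The 3 series gave medians of 0.42, 0.64 and 0.36 at days 2-3 for 1332, 1332b and 2046, and of 0.22, 0.29 and 0.53 at days 4-5. Members of a series share its uninduced array, so these values are not independent of each other. Nothing in the labels says that the arrays of a series are pairs. Same-series deviations from the group means correlated at -0.17 to 0.41, those of different series at -0.42 to 0.47. Where 1 of the 2 arrays was uninduced, the ranges were 0.03 to 0.34 and -0.24 to 0.14. Deviations from a group mean sum to 0, which lowers the values of different series, so these ranges do not decide the pairing. Members were chosen on induced against uninduced arrays, so these shares describe them and support nothing.

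**Figure D3:**
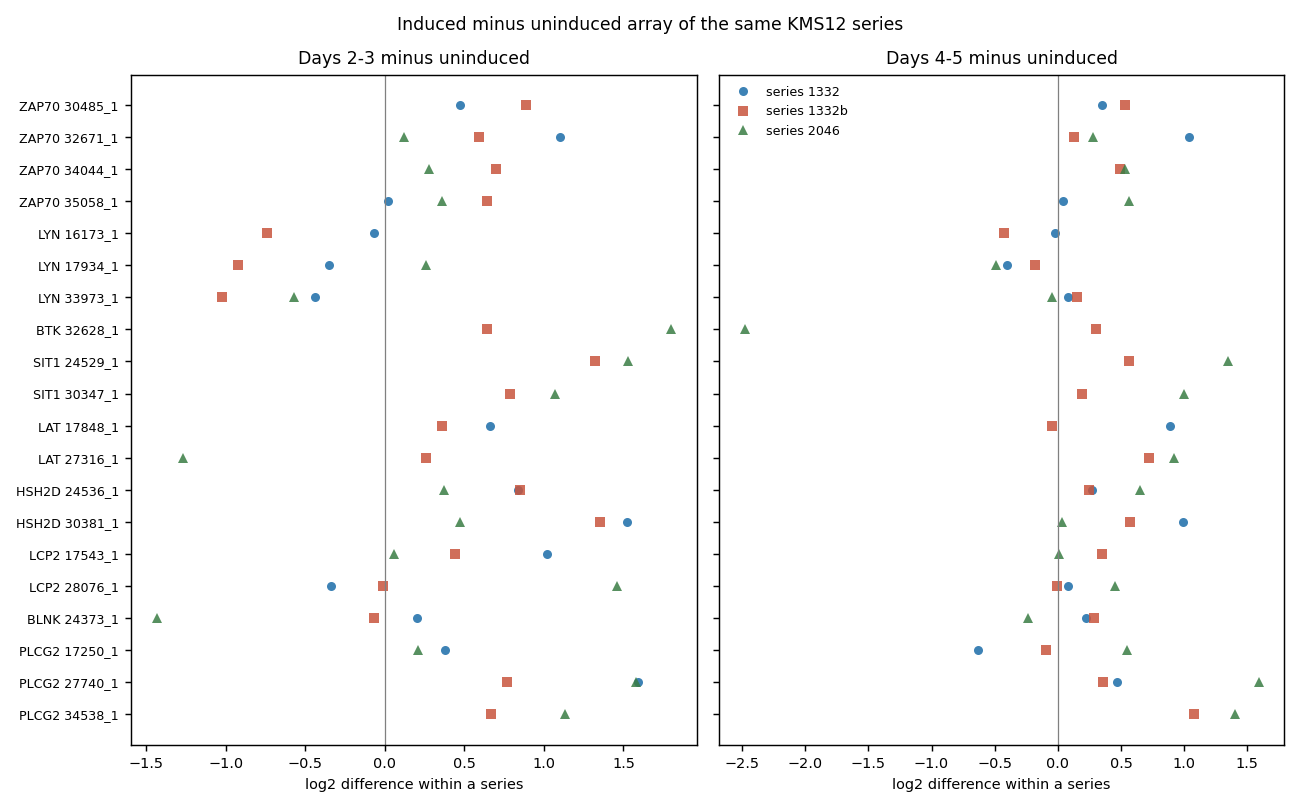
Log2 difference of each tested member feature between an induced and the uninduced array of the same KMS12 series, at days 2-3 (left) and days 4-5 (right), with 1 marker shape per series. Most points lie right of 0, LYN points mostly left, and the BTK point of series 2046 at days 4-5 lies near -2.5.

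The contrasts among induced arrays differ from the one by which several members were chosen. They share its induced values, so these tests are not independent of that choice. Between days 4-5 and days 2-3 in KMS12, 0 of the 20 member features passed (limma, adjusted p under 0.05), as did 0.0% of all 6879 features, while 2 member features and 18.3% of all features had an unadjusted p under 0.05. Their median difference was -0.12 (5 above 0, 15 below), beside 0.03 for all features, of which 52.4% lay above 0 and 47.6% below. LYN 33973_1 differed by 0.73 with an SE of 0.25 (limma adjusted p = 0.199), with all 3 values of days 4-5 above all 3 of days 2-3. HSH2D 30381_1 differed by -0.58 with an SE of 0.25 (limma adjusted p = 0.26), and 2 of its 3 values at days 4-5 lay below those of days 2-3. The lowest adjusted p among the members was that of LYN, and no member was shown to differ between the windows. Without the days 2-3 series 2046 array 560 features passed in this contrast, 0 of them member features.

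Between H929 at day 4 and KMS12 at days 4-5, 0 of 18 measured member features passed, beside 0.0903% of all features (6 of 6647, 0.015% higher and 0.0752% lower), and 3 members had an unadjusted p under 0.05, beside 17.9% of all. Of the 18, 9 lay above 0 and 9 below, beside 48.4% and 51.6% of all features. PLCG2 34538_1 averaged -0.20 in H929 and 0.54 in KMS12, a difference of -0.75 with an SE of 0.25 (limma adjusted p = 0.179). LYN 33973_1 averaged -0.61 in H929 and 0.04 in KMS12, a difference of -0.65 with an SE of 0.28 (limma adjusted p = 0.25). HSH2D 30381_1 read 0.66 on the single H929 array that measured it and averaged -0.17 in KMS12 (limma adjusted p = 0.257). SIT1 was close in both lines, with means of 0.80 and 0.86 in H929 and 0.84 and 0.55 in KMS12 for its 2 features (differences of -0.04 and 0.31, SE 0.39 and 0.30). At that SE an equal level was not shown.

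Between SKMM1 at day 4 and KMS12 at days 4-5, 0 of 16 measured member features passed, beside 0.735% of all features (44 of 5985, 0.0668% higher and 0.668% lower), and 1 member had an unadjusted p under 0.05, beside 18.8% of all. Of the 16, 13 lay above 0 and 3 below, beside 49.6% and 50.4% of all features. This group is 1 array, whose spread is taken from the other groups. LYN 33973_1 read 0.86 in SKMM1 and averaged 0.04 in KMS12 (limma adjusted p = 0.239). The ZAP70 features read 0.64 to 0.84 in SKMM1 and averaged 0.06 to 0.40 in KMS12, differences of 0.25 to 0.76 (limma adjusted p = 0.27 to 0.683). The IRF4 features themselves differed by -1.33 and -1.11 between H929 and KMS12 and by -1.33 and -1.40 between SKMM1 and KMS12 (limma adjusted p = 0.0803 to 0.0984), and their part in the differences between lines was not tested.

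**Figure D4:**
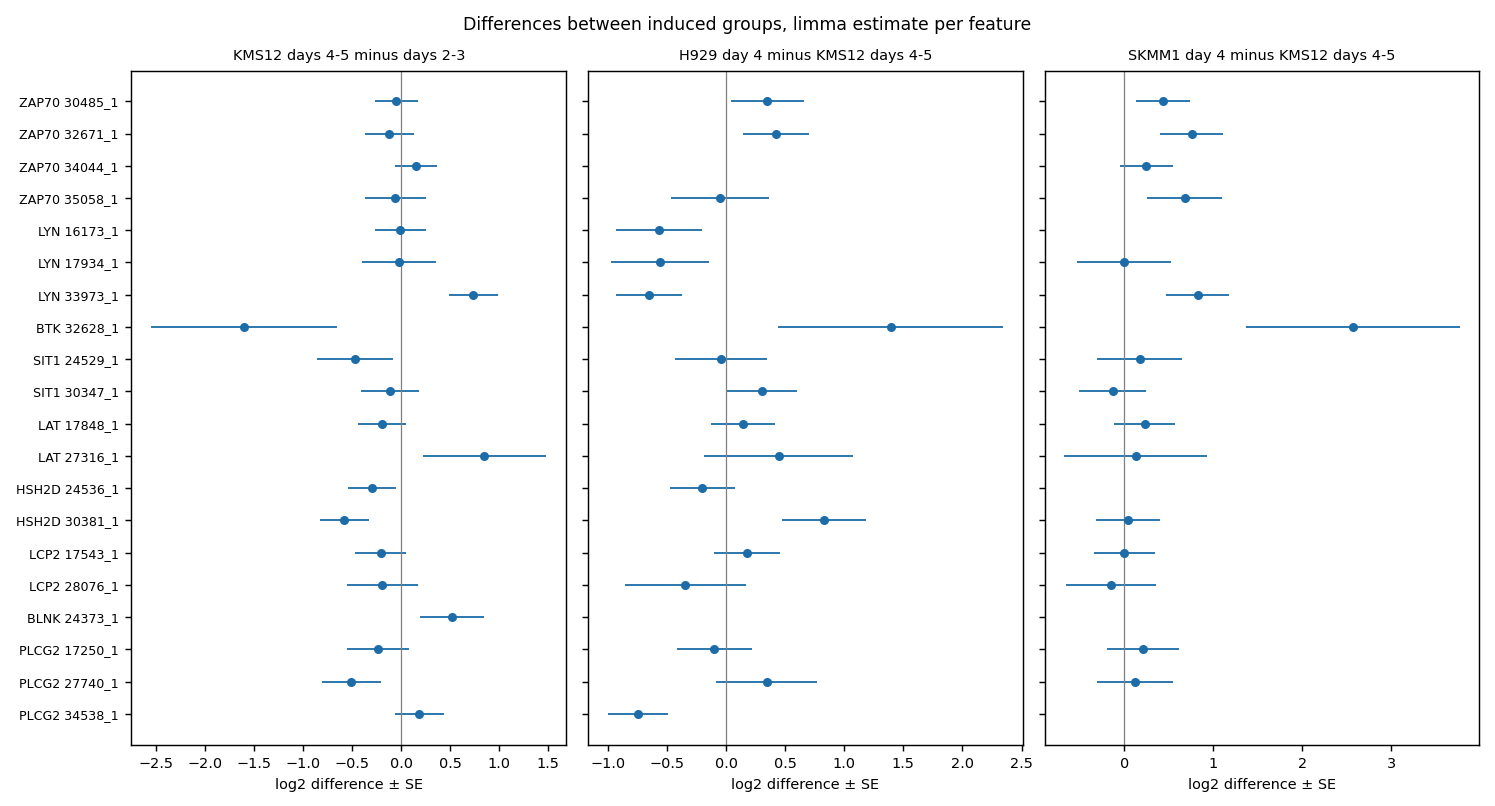
Difference in log2 ratio of each tested member feature between KMS12 days 4-5 and days 2-3 (left), H929 day 4 and KMS12 days 4-5 (middle) and SKMM1 day 4 and KMS12 days 4-5 (right), as the limma estimate with 1 SE. Most error bars reach or lie close to 0, and the BTK bars are the widest.

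A pair of features of 1 gene differed by a median of 0.361 in log2 ratio over 16 pairs of member features (7 genes, 0.15 to 0.581), beside 0.318 over 3841 pairs of 1243 genes. The features most like SIT1 24529_1 over 10 or 11 shared arrays were those of KLF4 and FHIT, with mean absolute differences of 0.273 and 0.299. For ZAP70 32671_1 they were IGHM (0.148 over 12 arrays) and TMEM223 (0.156 over 11 arrays).

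The rest of the antigen receptor pathway was taken from a list of 146 other genes, of which 74 had tested features (178 features). Of these features 0 passed in any of the 3 KMS12 contrasts, beside 0.0% of all features. An unadjusted p under 0.05 was held by 50 of the 178 at days 2-3 against uninduced, beside 1719 of all 6879 features (25.0%). At days 4-5 against uninduced it was 20, beside 387 (5.63%), and at days 4-5 against days 2-3 it was 36, beside 1258 (18.3%). H929 against KMS12 gave 0 of 174, beside 0.0903% of all features, and SKMM1 against KMS12, which rests on 1 SKMM1 array, gave 1 of 158, which was lower, beside 0.735% of all features. That feature was MAP2K1 28520_1, the kinase MEK1, named after its values were seen. It read -1.36 in SKMM1 and averaged 0.09 in KMS12. Another MAP2K1 feature, 16005_1, was measured on all 13 arrays and did not pass. Without the KMS12 days 4-5 series 1332b array, and with arrays scaled to equal spread, 0 features passed in that contrast.

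By role, the receptor chains and coreceptors had the highest median at days 2-3. At days 2-3 against uninduced 25 of their 26 features lay above 0, with a median of 0.56, and at days 4-5 21 of 26, with a median of 0.33. The adaptors and exchange factors had 13 of 17 above 0 at days 2-3 (median 0.33), the kinases 15 of 26 (0.13), the negative regulators 27 of 44 (0.28) and the downstream effectors 29 of 65 (-0.06). None of these groups had a feature past the threshold at days 2-3 or days 4-5 against uninduced. At days 4-5 against uninduced, 1 feature of each group had its smallest p (limma adjusted p = 0.759 to 0.785). For receptors and kinases these were CR2 27987_1, a complement coreceptor of B cells, at 0.87, and PIK3R1 28377_1, a PI3-kinase subunit, at 0.73. For adaptors and negative regulators they were VAV1 37557_1, an exchange factor, at -0.71, and PTPN6 34407_1, the phosphatase SHP-1, at -0.91. For downstream effectors it was BCL10 26596_1, an adaptor of NF-kB signalling, at 1.59. Features of 1 gene could disagree: at days 4-5 CR2 28383_1 averaged 0.00 against 0.60 for 27987_1. Other pairs lay closer and shared a sign. VAV1 32401_1 averaged -0.06 against -0.26 for 37557_1, and PTPN6 30919_1 averaged -0.90 against -1.02 for 34407_1.

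Marker lists of other cell types were read beside the members. All 7 tested T cell marker features (5 of 11 listed genes) lay above 0 at days 2-3 against uninduced and 6 of 7 at days 4-5, and 8 of the 11 genes are also in the receptor list. The array medians of the T cell markers ran from -0.09 to 0.70 at days 2-3 and from 0.03 to 0.71 at days 4-5, against -0.24 to 0.09 uninduced. NK cell markers had 4 tested features (3 of 6 genes), with array medians of -0.01 to 0.79 at days 2-3 and -0.49 to 0.15 at days 4-5, against -1.74 to 0.06 uninduced. Of the 4 NK features, 4 lay above 0 at days 2-3 and 3 at days 4-5 against uninduced. Myeloid markers had 1 tested feature for 9 listed genes, which differed from uninduced by -0.35 at days 2-3 and 0.14 at days 4-5. Their part in the members' differences was not tested, and no marker feature of these lists passed the threshold at days 2-3 or days 4-5 against uninduced. Earlier B cell markers lay above 0 in 19 of 22 features at days 2-3 (median 0.55) and 15 of 22 at days 4-5 (0.40). Their array medians ran from 0.02 to 0.30 at days 2-3 and from -0.09 to 0.21 at days 4-5, against -0.41 to -0.18 uninduced. Of their 13 listed genes, 2 are also receptor chains or coreceptors, 1 is among the kinases and 1 among the negative regulators. Plasma cell markers lay below 0 in 18 of 20 in each window (-0.45 and -0.24). Their array medians ran from -0.60 to -0.24 at days 2-3 and from -0.43 to -0.17 at days 4-5, against 0.01 to 0.08 uninduced. Between SKMM1 and KMS12 days 4-5, 1 plasma cell marker feature of 20 passed, ELL2 24639_1, an elongation factor of plasma cells named after its values were seen, which read 1.35 in SKMM1 and averaged -0.99 in KMS12 (limma adjusted p = 0.0445). It did not pass without the KMS12 days 4-5 series 1332b array or with arrays scaled to equal spread, where 0 features did.

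**Figure D5:**
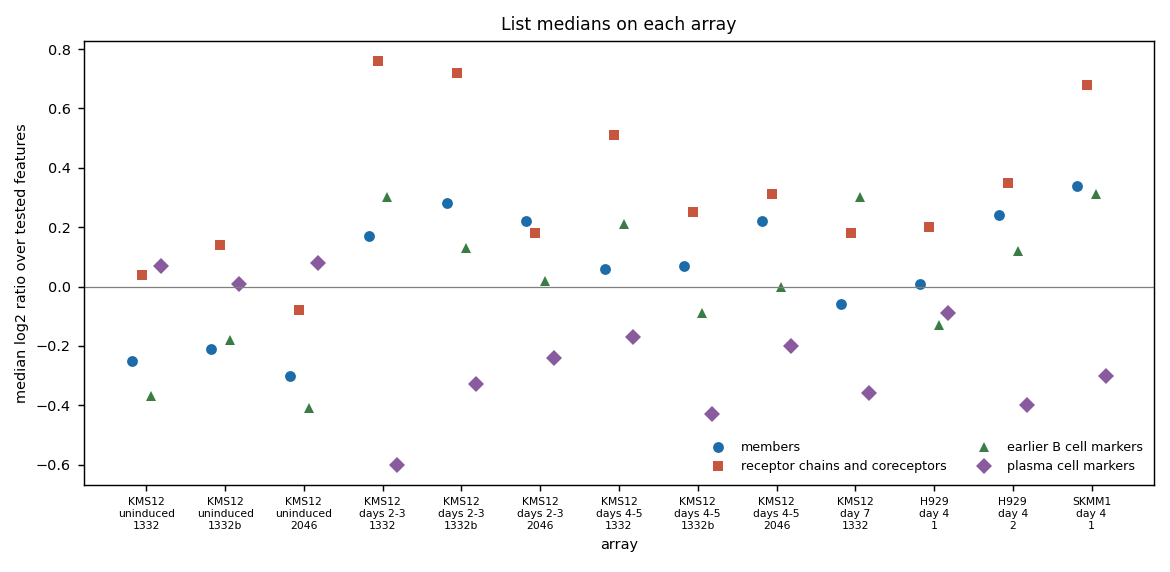
Median centred log2 ratio over the tested features of the members, the receptor chains and coreceptors, the earlier B cell markers and the plasma cell markers on each of the 13 arrays. The member medians sit at -0.30 to -0.21 on the uninduced arrays and at 0.06 to 0.28 on the KMS12 arrays of days 2-3 and days 4-5, with -0.06 at day 7.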

How the data were processed

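The table the authors deposited holds 15246 features by 13 arrays and gives log ratios, which were read as log2 values. Their base, normalization, background correction and blank-spot rule are not given in the sources used. Per the labels, Trizol RNA was reverse-transcribed with Cy5 for the IRF4 hairpin and with Cy3 for the control. Gene symbols came from the platform annotation, updated through gene identifiers to RefSeq: 10169 features had 1 symbol, 4 several and 5073 none.

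Features with values on at least 10 arrays and on at least 2 of 3 arrays of each KMS12 group were kept (6879), and their median was subtracted from every array. A limma model (version 3.58.1, R 4.3.3) with 6 group means over the 13 arrays gave two-sided moderated tests per feature for 5 contrasts, adjusted by Benjamini-Hochberg across all features, at a threshold of 0.05. A fit on simulated data for days 4-5 against days 2-3 (6879 features) recovered 45% of changes of 1 and 86% of changes of 2 on the log2 scale, with 4 false calls. The simulated noise was independent between features, with no deviation shared across an array, so these rates need not hold for the real arrays. The members, lists and settings were chosen with earlier results of these data known. Genes named were IRF4, the members, up to 4 pathway genes a role group with the smallest p (the first of each is given), and for each member the 2 features with the smallest mean absolute difference over at least 10 arrays, given for SIT1 and ZAP70. Alternatives were other scaling, no centring, averaged features, other filters, a replicate block and leaving out each array.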

Additional observations from a re-analysis of the deposited data

How the results depend on the processing

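No member feature passed in the 3 contrasts among induced arrays under the settings that were run for each (lowest adjusted p 0.0508). The replicate block gave no value for H929 or SKMM1, nor did leaving out the SKMM1 array for SKMM1, and 2 member features were tested among those on all 13 arrays. Signs were less stable: of 54 such member differences, 30 turned under at least 1 setting, and the cause was not tested. Of the 20 member differences from uninduced in each window, 4 turned at days 2-3 (LYN 16173_1, PLCG2 17250_1, LAT 27316_1 and LCP2 28076_1) and 6 at days 4-5 (PLCG2 17250_1, BLNK 24373_1, LAT 27316_1, BTK 32628_1, LYN 33973_1 and ZAP70 35058_1), each under at least 1 setting, and 22 of the alternative values moved by over 1 SD. BTK 32628_1 stood at 0.876 at days 4-5 without the series 2046 array of that window, against -0.383 with it, and PLCG2 17250_1 at -0.003 at days 2-3 without centring, against 0.185 with it. The count of 6 member features higher on every induced array that carried a value was 2 without centring (beside 0.683% of all features). It was 8 with scale normalization (2.27%, HSH2D 30381_1 not among them), 6 without the uninduced array of series 2046 (2.3%) and 6 without its days 2-3 array (2.09%). Without that days 2-3 array 1 member feature, LYN 16173_1, was lower on every induced array that carried a value, beside 2.08% of all features. Without centring 0 were lower, beside 4.24% of all features. These settings were chosen after seeing the data. Over all features, the number called (0, 0, 0, 6 and 44 for days 2-3 and days 4-5 against uninduced, days 4-5 against days 2-3, H929 and SKMM1 against KMS12) was 516 for days 2-3 against uninduced, 3 for H929 and 41 for SKMM1 without centring. It was 239, 121 and 162 for these with features on all 13 arrays, 1, 0 and 0 with scale normalization, and 2 for H929 and 16 for SKMM1 with features averaged. With the looser filter it was 3 for H929 and 12 for SKMM1. The replicate block left 0 calls in the 3 KMS12 contrasts. The main fit did not take the series names as pairs. Same-series deviations correlated at -0.17 to 0.41, and at 0.03 to 0.34 where 1 of the 2 arrays was uninduced. These values do not decide whether the arrays of a series are pairs. Leaving out 1 array gave 0 to 932 for days 2-3 against uninduced, 0 to 1 for days 4-5 against uninduced, 0 to 560 for days 4-5 against days 2-3, 0 to 33 for H929 and 0 to 179 for SKMM1. The counts of 932 and 560 came without the days 2-3 series 2046 array. There HSH2D 24536_1 and 30381_1, PLCG2 27740_1 and LYN 33973_1 differed from uninduced by 0.95, 1.31, 1.28 and -0.86 and passed, in the contrast by which members were chosen.

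With the features of a gene averaged, the gene value took the opposite sign as follows. For days 4-5 minus days 2-3, the value was 0.210 for LAT 17848_1, 0.234 for LYN 16173_1, 0.234 for LYN 17934_1, -0.206 for PLCG2 34538_1, -0.025 for ZAP70 34044_1. For H929 minus KMS12, the value was 0.126 for HSH2D 24536_1, 0.018 for LCP2 28076_1, -0.205 for PLCG2 27740_1, 0.109 for SIT1 24529_1, 0.149 for ZAP70 35058_1. For SKMM1 minus KMS12, the value was -0.155 for HSH2D 30381_1, -0.064 for LCP2 17543_1, 0.416 for LYN 17934_1, -0.019 for PLCG2 17250_1, -0.019 for PLCG2 27740_1, -0.003 for SIT1 24529_1. With features on all 13 arrays only, these turned. For days 4-5 minus days 2-3, the value was 0.004 for LYN 17934_1. For SKMM1 minus KMS12, the value was 0.009 for LYN 17934_1. Leaving out 1 array at a time, these changed sign, given as lowest to highest. For days 4-5 minus days 2-3, the value ran from -0.260 to 1.958 for LAT 27316_1, -0.506 to 0.305 for LCP2 28076_1, -0.260 to 0.186 for LYN 16173_1, -0.274 to 0.219 for LYN 17934_1, -0.451 to 0.042 for PLCG2 17250_1, -1.018 to 0.073 for SIT1 24529_1, -0.334 to 0.066 for SIT1 30347_1, -0.179 to 0.031 for ZAP70 30485_1, -0.429 to 0.306 for ZAP70 35058_1. For H929 minus KMS12, the value ran from -0.034 to 0.806 for LAT 27316_1, -0.036 to 0.383 for LCP2 17543_1, -1.375 to 0.258 for LYN 17934_1, -0.382 to 0.121 for PLCG2 17250_1, -0.586 to 0.504 for SIT1 24529_1, -0.419 to 0.316 for ZAP70 35058_1. For SKMM1 minus KMS12, the value ran from -0.087 to 0.206 for HSH2D 30381_1, -0.352 to 0.487 for LAT 27316_1, -0.062 to 0.064 for LCP2 17543_1, -0.125 to 0.128 for LYN 17934_1, -0.074 to 0.395 for PLCG2 17250_1, -0.165 to 0.415 for PLCG2 27740_1, -0.371 to 0.720 for SIT1 24529_1, -0.318 to 0.083 for SIT1 30347_1. With the looser filter, this turned. For SKMM1 minus KMS12, the value was -0.024 for LCP2 17543_1. Without centring, these turned. For days 4-5 minus days 2-3, the value was 0.035 for LYN 16173_1, 0.022 for LYN 17934_1. For SKMM1 minus KMS12, the value was -0.070 for HSH2D 30381_1, -0.129 for LCP2 17543_1. With the series as a replicate block, this turned. For days 4-5 minus days 2-3, the value was 0.033 for ZAP70 35058_1. With scale normalization, these turned. For days 4-5 minus days 2-3, the value was 0.054 for SIT1 30347_1, 0.073 for ZAP70 30485_1, 0.010 for ZAP70 35058_1. For SKMM1 minus KMS12, the value was 0.140 for LYN 17934_1, -0.352 for SIT1 24529_1, -0.027 for ZAP70 34044_1.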
